A study of Mus musculus with 48 samples.

Results

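The genes described here are 43 cell cycle and DNA replication genes, and the measurements are the accessible chromatin regions (peaks) that lie in or near them in tumour-infiltrating CD8 T cells. A peak was counted to a gene when it overlapped the body of that protein-coding gene, going to the gene with the closest boundary where several overlapped, or otherwise when that gene body was the nearest one within 100 kb. By this rule 147 of the 53868 peaks belonged to 39 of the 43 genes, and 101 of the 147 overlapped the gene body. The genes Mcm4, Mcm7, Aurka and Foxm1 had no peak of their own and are not described further. The peak over the Mcm7 start went to the neighbouring Ap4m1, and the one over the Aurka start to Cstf1.

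Cells advance from G1 into S phase when cyclin D with Cdk4 or Cdk6, and then cyclin E with Cdk2, phosphorylate the retinoblastoma protein Rb1 and release the E2F factors that switch on replication genes. The Mcm proteins form the replicative helicase, Pcna is the sliding clamp of the polymerases, and cyclin B with Cdk1 drives mitosis. Activated CD8 T cells divide very fast, and in tumours the Slamf6-positive progenitor cells are known to feed more differentiated, Tim-3-positive cells.

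Open chromatin was cut and tagged by Tn5 transposase (ATAC-seq) in Cas9-expressing OT-1 cells, CD8 T cells with a receptor for an ovalbumin peptide. All donor cells carried CD45.1, Cas9 and a lentiviral guide vector with an ametrine reporter, were placed in young or aged mice 1 day before B16-OVA melanoma cells were injected, and were sorted from the tumours on day 15. The 3 guides were the control, which the labels call OTC, and guides labelled as knockouts of Zfp219, a zinc finger protein, and Dusp5, a phosphatase of ERK. The 4 sorted states were Tprog, the progenitor exhausted cells that carry Slamf6 without Tim-3 (Slamf6+Tim-3-), Ttran, the transitory and effector-like cells with both proteins, Tterm, the terminally exhausted cells with Tim-3 alone, and Ttad, the age-associated dysfunctional cells with neither.

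Aged hosts (24 libraries) had the 3 guides in each of the 4 states with 2 libraries per group. Young hosts (24 libraries) had the 3 guides in Tprog with 2 libraries, and in Ttran and Tterm with 3 libraries per group. These are 21 groups and 48 libraries, and Ttad was sorted from aged hosts alone. The ages of the hosts in weeks were not used here. Each library held the pooled cells of several mice, 5000 to 50000 cells for each combination of guide and state, and the sources used here do not tell which mice made up a pool. The p-values therefore measure only the spread between these pools.

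Reads in peaks ran from 5638413 to 29942755 per library, with a median of 14691505. The control libraries held 8059981 to 14780826 reads in aged and 12629361 to 29942755 in young hosts. The Zfp219 libraries held 9160914 to 16159054 in aged and 6589023 to 20073943 in young hosts. The Dusp5 libraries held 5638413 to 14913637 and 7809388 to 22994236. All 8 CD8 T cell marker genes (such as Cd3e, Cd8a and Lck) had a peak, with a summed signal of 16900 to 22200 normalized reads in every library. Of the markers of other cells, Tyr, Dct and Tyrp1 (melanoma), Csf1r, Lyz2 and Adgre1 (myeloid cells) and Cd79a, Ms4a1 and Cd79b (B cells) had no peak. Other markers of such cells did have peaks. Over the libraries their sums were 913 to 1630 for 4 melanoma, 1980 to 2900 for 4 myeloid and 590 to 1010 for 2 B cell genes. They were 2500 to 4000 for 3 NK and 540 to 800 for 3 fibroblast genes. Accessibility at Zfp219 and Dusp5 does not report whether the guides cut, so the labels were not checked that way. The aged and the young libraries were numbered in separate sample sheets, so host age and preparation cannot be told apart.

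Values below are the deposited normalized reads in a peak, not corrected for the width of the peak. The strongest peak of 28 of the 39 genes lay over an annotated transcription start and that of 5 more at a gene boundary where no start was listed. The 32 peaks over a start had mean values of 302 to 2140 over all libraries, with a median of 594.5, and the other member peaks had a median of 84.6. Exceptions were Cdk6, whose strongest peak lay 150.9 kb downstream of its start (mean 1450), Ccne1 (22.1 kb downstream, 1260) and E2f2 (inside the gene, 1.8 kb upstream of its second annotated start, 1110). Cdk6 held 23 of the 147 peaks, Ccnd3 and E2f3 11 each, Ccne1 10, Rb1 8, and Ccnd2 and E2f2 7 each. The G1 and S cyclins and kinases held 58 peaks in all, the Rb and E2F genes 36, the mitosis genes 25, the helicase and licensing genes 15, the clamp and nucleotide genes 7 and the checkpoint kinases 6.

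Some starts of these genes carry the short sequences that E2F complexes and the cell cycle gene homology region (CHR) are known by, and 7 starts are printed because their peaks are described below. The bases are the part outside annotated genes of the 250 bases before the RefSeq start (GRCm38.p6), 5′ to 3′ on the gene's strand. Capitals mark an E2F core (TTCCCGC or TTGGCGC or TTCGCGC or TTGCCGC) or a CHR (TTTGAA or TTCGAA) on either strand, and neighbouring E2F cores on opposite strands can overlap, as in Mcm6 and Mcm5.
Mcm6, chr1:128359706-128359955, minus strand: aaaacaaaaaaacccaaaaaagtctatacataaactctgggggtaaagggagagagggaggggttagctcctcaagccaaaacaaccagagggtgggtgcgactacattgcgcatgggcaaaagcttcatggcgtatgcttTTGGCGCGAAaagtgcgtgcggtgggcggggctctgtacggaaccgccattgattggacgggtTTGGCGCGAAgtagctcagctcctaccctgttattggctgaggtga
Mcm5, chr8:75109259-75109467, plus strand: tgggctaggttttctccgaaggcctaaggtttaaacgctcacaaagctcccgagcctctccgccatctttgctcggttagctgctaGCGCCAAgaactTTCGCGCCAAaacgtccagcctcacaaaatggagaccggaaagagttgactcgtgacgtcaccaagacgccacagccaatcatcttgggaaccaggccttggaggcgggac
Mki67, chr7:135716451-135716629, minus strand: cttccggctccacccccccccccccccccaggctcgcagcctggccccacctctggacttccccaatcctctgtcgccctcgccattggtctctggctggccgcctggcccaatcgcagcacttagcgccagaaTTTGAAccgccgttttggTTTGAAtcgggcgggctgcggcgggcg
Top2a, chr11:99024200-99024439, minus strand: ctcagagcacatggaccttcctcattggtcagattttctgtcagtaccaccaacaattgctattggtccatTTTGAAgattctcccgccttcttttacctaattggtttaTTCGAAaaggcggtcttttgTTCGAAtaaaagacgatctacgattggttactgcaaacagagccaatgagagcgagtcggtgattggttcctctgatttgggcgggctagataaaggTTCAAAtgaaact
Ccnb2, chr9:70421555-70421804, minus strand: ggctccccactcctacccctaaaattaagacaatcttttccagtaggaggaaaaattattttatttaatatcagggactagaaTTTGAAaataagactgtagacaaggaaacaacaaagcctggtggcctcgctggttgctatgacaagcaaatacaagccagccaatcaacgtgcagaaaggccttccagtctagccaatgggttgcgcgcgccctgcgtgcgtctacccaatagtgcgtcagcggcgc
E2f2, chr4:136172024-136172273, plus strand: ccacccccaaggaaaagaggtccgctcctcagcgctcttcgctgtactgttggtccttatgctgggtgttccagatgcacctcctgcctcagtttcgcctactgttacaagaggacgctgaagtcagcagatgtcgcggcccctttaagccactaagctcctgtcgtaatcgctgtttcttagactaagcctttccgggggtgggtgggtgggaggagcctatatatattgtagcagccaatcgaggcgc
Cdk1, chr10:69352913-69353162, minus strand: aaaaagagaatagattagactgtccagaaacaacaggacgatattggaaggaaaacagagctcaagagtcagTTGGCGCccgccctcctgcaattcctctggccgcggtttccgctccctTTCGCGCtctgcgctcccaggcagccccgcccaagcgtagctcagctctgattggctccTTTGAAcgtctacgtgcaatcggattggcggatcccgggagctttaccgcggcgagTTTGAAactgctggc
Mcm6 held 4 and Mcm5 held 3 E2F cores and no CHR, Top2a held 4, Mki67 held 2 and Ccnb2 held 1 CHR with no E2F core, Cdk1 held 2 of each, and E2f2 held neither in these printed bases. The full 250 bases before the Mki67 start also hold 1 E2F core, outside the printed bases.

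Over the 33 member starts that lay under a member's peak, 12 (36.4%) held an E2F core in the full 250 bases before the start, against 14.6% of the 13247 starts under any peak and 7.89% of all 32851 starts of the table. A CHR was found in 10 (30.3%), against 11.8% of starts under any peak. The CCAAT box (CCAAT, either strand) stood in 23 (69.7%) against 35.1%, and the GC box (GGGCGG, either strand) in 24 (72.7%) against 60.3%. These are matches of letters and do not show binding.

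Every comparison was run with limma on log2(value + 1) for the 53868 peaks together. Called means a Benjamini-Hochberg adjusted p under 0.05. All log2 values and standard errors (SE) below are differences on that scale, which understates changes of weak peaks. In these pools of cells, a change in every cell and a change in the share of a kind of cell cannot be told apart. Comparisons of the control states with each other, and of both guides with the control, share OTC libraries.

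**Figure D1:**
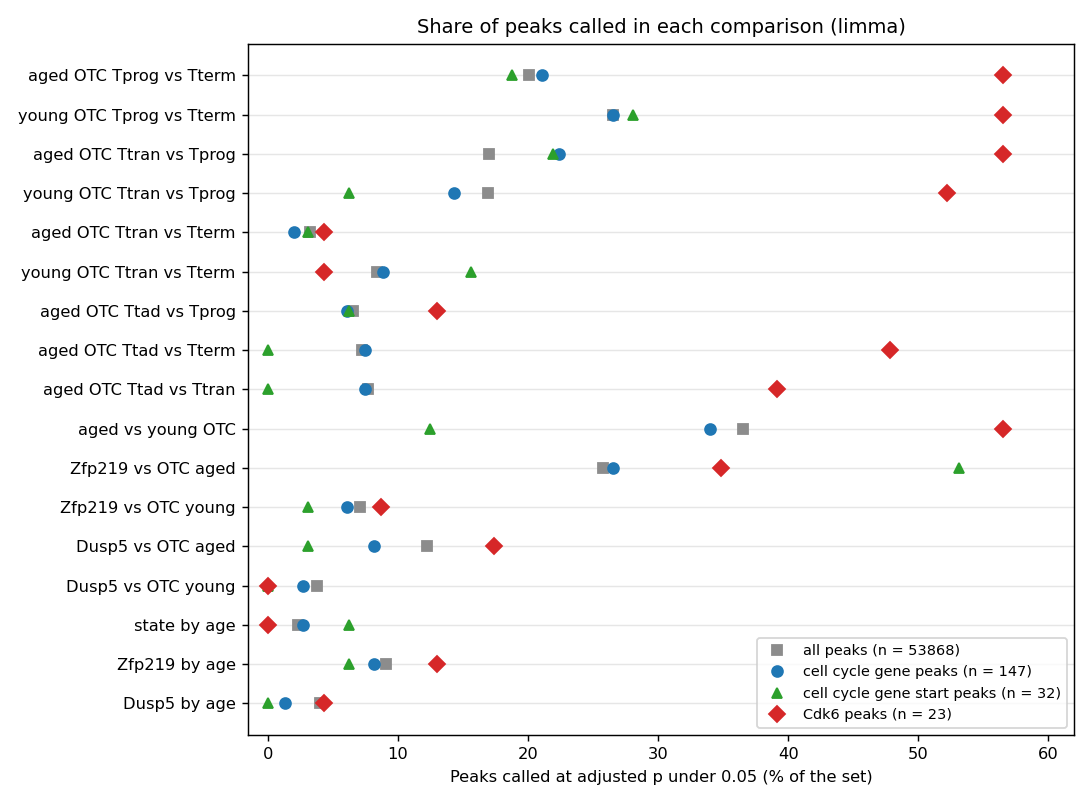
Share of peaks called (x axis, percent of the set) in 17 comparisons (y axis) for all 53868 peaks, the 147 cell cycle gene peaks, the 32 of them over a start and the 23 Cdk6 peaks. The blue points lie close to the grey background squares in most comparisons, the red Cdk6 diamonds lie above 50% in Tprog against Tterm, Ttran against Tprog and aged against young, and the green start peaks reach 53.1% in Zfp219 against OTC in aged hosts.

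Between Tprog and Tterm the cell cycle genes as a whole were called about as often as other peaks, and the difference that stood out lay in Cdk6. In aged hosts 31 of the 147 member peaks were called (21.1%, against 20.1% of all peaks), 6 higher and 25 lower in Tprog. In young hosts 39 were called (26.5%, against 26.5% of all peaks), 13 higher and 26 lower. Cdk6 gave 13 of the called peaks at each age, all 13 lower in Tprog, where 11.2% of all peaks in aged and 12.6% in young hosts were called lower. The median difference over its 23 peaks was -0.65 in aged and -0.46 in young hosts, where the median of all peaks was 0.01 at both ages. Of the 13 Cdk6 peaks called at each age, 10 were shared (76.9% of either list), all with the same sign. Of the other member peaks, 18 were called in aged and 26 in young hosts, and 4 were shared, 3 of them with the same sign. The aged count rests on all 4 control libraries: it was 15 without Tprog replicate 1, 20 without Tprog replicate 2 and 16 without either Tterm library, and the Cdk6 count fell to 8 without Tterm replicate 2, while the young count was 24 without Tprog replicate 1. Among markers of other cells, the summed signal of the 3 NK genes was 3500 in both aged OTC Tprog libraries and 2640 to 2820 in Tterm, that of the 2 B cell genes with a peak 932 to 1010 and 686 to 701, and that of the 4 myeloid genes with a peak 2020 to 2130 and 2270 to 2310. The 4 melanoma genes with a peak gave 1340 to 1380 and 1250 to 1260. In young OTC cells these 4 lists were higher in Tprog than in Tterm. NK genes gave 3640 to 3700 and 2800 to 2970, and B cell genes 781 to 805 and 606 to 652. Myeloid genes gave 2700 to 2760 and 2430 to 2600, and melanoma genes 1570 to 1630 and 1270 to 1330. The 3 fibroblast genes with a peak overlapped in aged hosts and were lower in young Tprog (560 and 619 against 705, 734 and 742). In young hosts the CD8 T cell genes gave 22000 to 22200 and 19900 to 20500, and the part of these lists in the result was not tested.

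Cdk6, a kinase that cyclin D activates in G1, spans chr5:3341004-3531008 on the plus strand (mm10), and 22 of its 23 peaks lie in the gene body. Of the 14 peaks over 100 kb downstream of the start, 11 were called lower in aged and 8 in young Tprog, against 2 and 5 of the 9 peaks nearer the start. The peak 134.8 kb downstream, at chr5:3477645-3479815, gave 606 and 552 normalized reads in the 2 aged OTC Tprog libraries, 1170 and 853 in Ttran, 1100 and 1210 in Tterm and 850 and 822 in Ttad. In young OTC cells it gave 292 and 344 in Tprog, 783, 864 and 824 in Ttran, and 850, 832 and 765 in Tterm. At both ages every Tprog library lay under every library of the other states, while Ttran and Tterm overlapped. The difference between Tprog and Tterm was -0.99 (SE 0.10, adjusted p = 3.15e-13) in aged and -1.36 (SE 0.09, adjusted p = 1.97e-22) in young hosts.

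The peak 117.1 kb downstream (chr5:3460243-3461692) was also lowest in Tprog. It had 113 and 107 normalized reads in OTC Tprog, 381 and 348 in Ttran, 290 and 291 in Tterm, and 235 and 165 in Ttad. The young libraries held 160 and 173 in Tprog, 286, 321 and 262 in Ttran and 283, 287 and 264 in Tterm. No Tprog library overlapped another state, and Tprog differed by -1.39 (SE 0.18, adjusted p = 8.83e-10) against Tterm in aged and -0.73 (SE 0.16, adjusted p = 0.000222) in young hosts.

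The strongest Cdk6 peak, 150.9 kb downstream (chr5:3494051-3495450), differed less. Its values in aged OTC cells were 1220 and 1280 in Tprog, 1850 and 1950 in Ttran, 1770 and 1850 in Tterm, and 1530 and 1450 in Ttad. Young OTC cells had 1160 and 1390 in Tprog, 1780, 1660 and 1710 in Ttran, and 1440, 1590 and 1520 in Tterm. Tprog lay lowest at both ages, by -0.54 (SE 0.07, adjusted p = 6.16e-09) in aged and -0.25 (SE 0.07, adjusted p = 0.00219) in young hosts against Tterm. The Cdk6 start peak was called in young hosts alone, lower in Tprog by -0.37 (SE 0.07, adjusted p = 2.46e-05), with 1120 and 1030 in Tprog and 1360 to 1450 in Tterm. In aged hosts it had 1120 and 1050 in Tprog and 1120 and 1190 in Tterm, and the change of this difference with age was called at no Cdk6 peak on the deposited scale, while after quantile normalization it was called at this start peak (0.42, adjusted p = 0.0199 by limma, against 0.28 and 0.17).

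**Figure D2:**
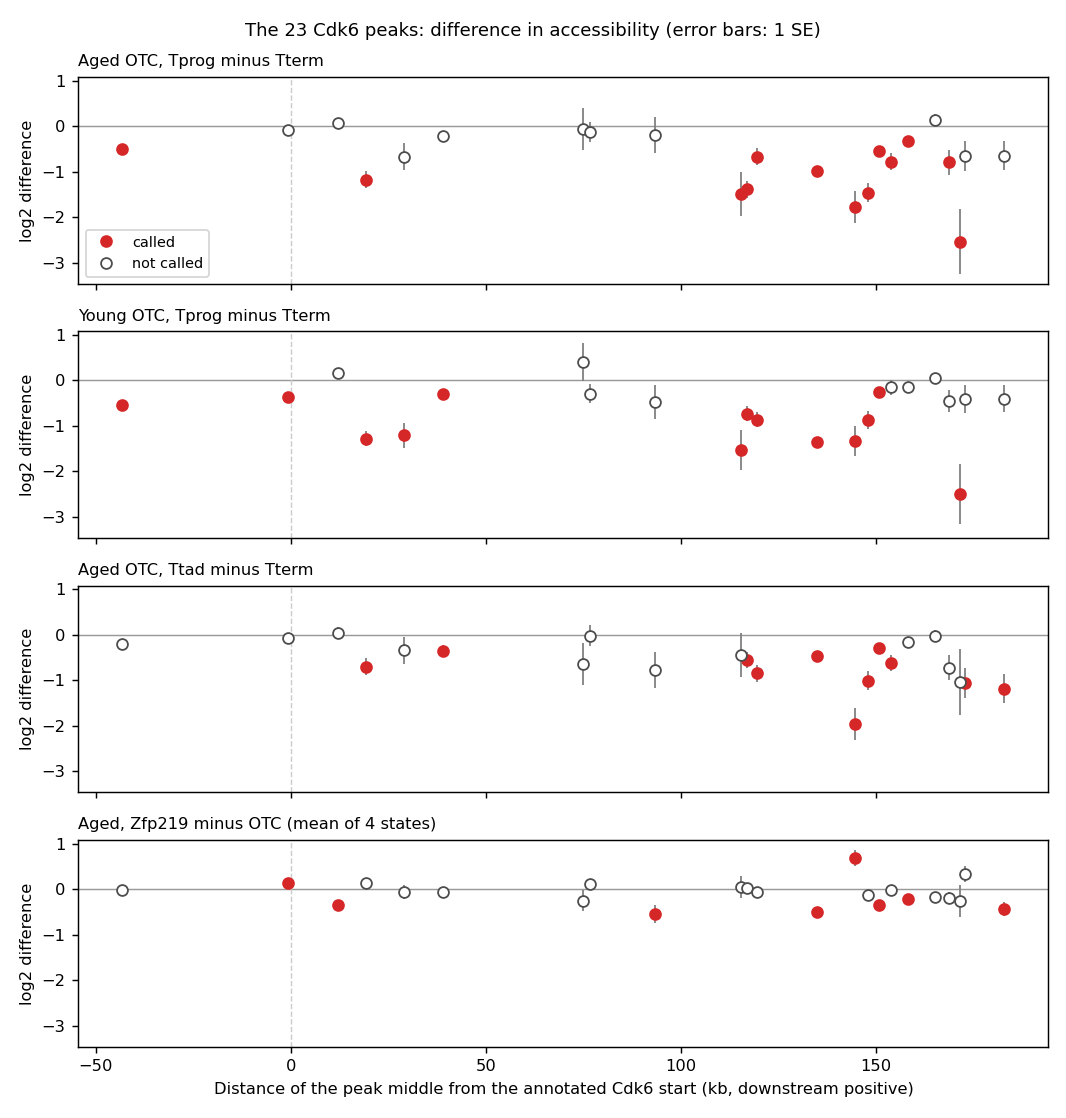
Difference in log2(value + 1) at the 23 Cdk6 peaks (y axis, error bars 1 SE) against the distance of the peak middle from the annotated start (x axis, kb), for 4 comparisons, with called peaks filled. Called peaks in the state comparisons lie below 0, while with the Zfp219 guide 6 called peaks lie below and 2 above 0. In aged Tprog against Tterm, 11 of 14 peaks over 100 kb from the start were called, and 2 of 9 nearer peaks. In young Tprog against Tterm, 8 of 14 and 5 of 9 were called, which are similar shares.

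Among replication genes, a peak 5.0 kb upstream of Mcm3, a subunit of the helicase, went the other way (chr1:20824938-20825686). In aged OTC cells it had 177 and 134 normalized reads in Tprog, 48.1 and 54.2 in Ttran, 29.4 and 29.3 in Tterm, and 57 and 56.7 in Ttad. In young OTC cells it had 133 and 113 in Tprog, 22.5, 35.2 and 20.1 in Ttran, and 31, 24.4 and 20.8 in Tterm. Tprog stood apart at both ages, 2.35 higher on the log2 scale than Tterm in aged (SE 0.40, adjusted p = 2.38e-06) and 2.25 higher in young hosts (SE 0.37, adjusted p = 5.89e-07). The Mcm3 start peak was called in neither. The start peaks of Cdc45 and Cdc6, which load and activate the helicase, were lower in aged Tprog by -0.26 (SE 0.08, adjusted p = 0.0113) and -0.33 (SE 0.11, adjusted p = 0.023), calls that quantile normalization ended, with values of -0.14 and -0.26.

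Of the 36 Rb and E2F peaks, 7 were called between aged Tprog and Tterm, 3 higher and 4 lower in Tprog, against 20.1% of all peaks. In young hosts 8 were called, 2 higher and 6 lower, against 26.5%. A peak 18.9 kb upstream of E2f3, an activating E2F, was lower in Tprog at both ages. It had 130 and 94.9 normalized reads in aged OTC Tprog against 174 and 177 in Tterm, and 97.4 and 133 in young Tprog against 228, 246 and 214 in Tterm, with no overlap in either. The difference was -0.65 in aged hosts (SE 0.24, adjusted p = 0.0374), and it was called in young hosts too (adjusted p = 0.000147). The aged call ended without Tprog replicate 2 (-0.43) and without either Tterm library (-0.66 and -0.64). The E2f3 start peak was lower in aged Tprog by -0.37 (SE 0.07, adjusted p = 1e-05), and that of E2f7, a repressing E2F, by -0.42 (SE 0.12, adjusted p = 0.00851), which was not called without Tprog replicate 1 (-0.39) or Tterm replicate 1 (-0.28).

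At the starts, in young hosts 9 of 32 start peaks were called between Tprog and Tterm, 8 of them lower in Tprog, against 24.4% of all start peaks, and the first Ccnd3 start was higher (0.43, SE 0.10, adjusted p = 0.000732). The lower ones were those of Ccne1 (-0.43), Cdk6, E2f1 (-0.21), E2f2 (-0.50), E2f8 (-0.31), the proliferation marker Mki67 (-0.27), Mybl2 (-0.37) and Rrm2, a subunit of the enzyme that makes deoxynucleotides (-0.36), with adjusted p between 2.46e-05 and 0.0417. The call of E2f2 ended without young Tprog replicate 1 (-0.24). Reads at the starts of all genes made up 36.8% to 37% of the reads in young OTC Tprog and 38.2% to 38.4% in Tterm. The part of this lower share at all starts in the result was not tested. In aged hosts 6 of 32 were called, 5 of them lower, against 11.1% of all start peaks, and after quantile normalization 5 were called, 3 of them lower. The only start peak called higher in aged Tprog was that of the mitotic kinase Plk1 (0.41, SE 0.13, adjusted p = 0.0153). Peaks over the starts of Top2a, Mcm2, Mcm5, Ccnb1, Cdk1 and Pcna were called at neither age between Tprog and Tterm.

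Ttran cells had higher Cdk6 peaks than Tprog cells at both ages, and higher Ccnd3 start peaks in aged hosts. Against Tprog, 33 member peaks were called in aged Ttran (22.4%, against 17% of all peaks), 27 of them higher, and 20 of 28 were higher after quantile normalization. Leaving out Tprog replicate 1 left 13 calls and leaving out Tprog replicate 2 left 19. In young hosts 21 were called (14.3%, against 16.9%), 17 of them higher. Cdk6 again supplied 13 and 12 of these calls, all higher in Ttran, where 9.99% and 9.07% of all peaks were called higher. The NK markers were lower in Ttran than in Tprog, with 2890 to 3060 against 3500 in aged and 2970 to 3180 against 3640 to 3700 in young hosts. B cell (635 to 716 against 932 to 1010) and melanoma genes (1280 to 1290 against 1340 to 1380) were lower in aged Ttran. Myeloid genes were higher there (2280 to 2420 against 2020 to 2130). In young Ttran the B cell (590 to 745 against 781 to 805), melanoma (1350 to 1400 against 1570 to 1630) and myeloid genes (2610 to 2650 against 2700 to 2760) were lower. So were the young CD8 T cell genes (19900 to 20300 against 22000 to 22200), and the part of these lists was not tested. The peak 134.8 kb downstream was higher in Ttran by 0.79 in aged and 1.37 in young hosts, and the one 117.1 kb downstream by 1.71 in aged hosts (SE 0.18, adjusted p = 6.43e-13). Of the 32 start peaks 7 were called in aged hosts, against 13.6% of all start peaks. Those of Ccnd3, which encodes cyclin D3, were both higher in aged Ttran, by 0.33 and 0.37, and the Cdk1 start peak was lower by -0.41 (SE 0.13, adjusted p = 0.0198). After quantile normalization the lower of the Ccnd3 calls ended (0.27), as did those of Cdc45, Cdk4 and E2f3, and the Cdk1 call ended without either Tprog library (-0.39 and -0.43) or Ttran replicate 1 (-0.18).

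Between Ttran and Tterm, 3 member peaks were called in aged hosts (2.04%, against 3.22% of all peaks), 1 of them higher in Ttran and by edgeR 2 of 4, and 13 in young hosts (8.84%, against 8.38%). In young hosts the start peaks of Ccne1 (-0.36), Rrm2 (-0.32), the mitotic checkpoint kinase Bub1b (-0.51), Mybl2 (-0.35) and Mcm3 (-0.32) were lower in Ttran, all 5 of the start peaks called, against 15.8% of all start peaks. Leaving out 1 library ended the call of Ccne1 (Ttran replicate 1, -0.26), of Mybl2 (Tterm replicate 2, -0.30) and of Mcm3 (without any of 4 libraries, -0.27 to -0.30). Reads at the starts of all genes made up 35.9% to 36.8% of the reads in young OTC Ttran and 38.2% to 38.4% in Tterm. The part of this lower share at all starts in the result was not tested. The young count was 8 without Ttran replicate 1 or 2, and 25 when only the compared groups were fitted. The aged count was 0 without Tterm replicate 1 and also when only the compared groups were fitted.

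Ttad cells, which lack both surface proteins, lay between Tprog and Tterm in the summed signal of the Cdk6 peaks. Against Tterm, 11 member peaks were called (7.48%, against 7.28% of all peaks), all lower in Ttad and all in Cdk6, while 4.26% of all peaks were called lower. The summed signal of the 23 Cdk6 peaks averaged 10200 normalized reads in aged OTC Tterm, 9930 in Ttran, 8260 in Ttad and 7440 in Tprog. Single peaks did not all follow this order: against Tprog 3 of the 23 were called, and at 4 of the 23 both Ttad libraries lay below both Tprog libraries. At the peak 134.8 kb downstream, Ttad was higher than Tprog by 0.53 (SE 0.10, adjusted p = 0.000208) and lower than Tterm by -0.46 (SE 0.10, adjusted p = 0.0012), and its libraries overlapped neither. At 144.8 kb downstream the 2 Ttad libraries had 16.8 and 22.2 normalized reads, near the 40.8 and 11.5 of Tprog and below the 74.1 and 81.6 of Tterm (-1.96, SE 0.36, adjusted p = 5.86e-05). The count of 11 was 6 without Ttad replicate 2, 7 without Tterm replicate 1 and 3 without Tterm replicate 2, and the Cdk6 count was then 5, 7 and 3. B cell markers were higher in Ttad than in Tterm (896 to 932 against 686 to 701), as were NK markers (2970 to 3000 against 2640 to 2820). Myeloid markers (2190 to 2250 against 2270 to 2310) and fibroblast markers (643 and 654 against 678 and 684) were lower. What part these lists had in the result was not tested.

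Against Tprog, 9 member peaks were called in Ttad (6.12%, against 6.55%), 7 of them higher. The count was 3 without Tprog replicate 1 and 4 without Ttad replicate 1. At the second Ccnd3 start, the Tprog libraries had 534 and 531 normalized reads and the Ttad libraries 812 and 742, a difference of 0.54 (SE 0.10, adjusted p = 0.00016). The Mcm3 peak 5.0 kb upstream was lower in Ttad by -1.42 (SE 0.40, adjusted p = 0.0169), a call that ended without Tprog replicate 1 (-1.22) or either Ttad library (-1.42). Against Ttran, 11 member peaks were called (7.48%, against 7.74%), 10 of them lower in Ttad and 9 in Cdk6, and 7 were called when only the compared groups were fitted. No member start peak was called between Ttad and Tterm or Ttran by limma or by edgeR's quasi-likelihood test, against 3.35% and 6.03% of all start peaks by limma, and 3 and 7 of the 32 had an unadjusted p under 0.05. NK markers were lower in Ttad than in Tprog (2970 to 3000 against 3500), and myeloid markers higher (2190 to 2250 against 2020 to 2130). B cell markers were higher in Ttad than in Ttran (896 to 932 against 635 to 716), and myeloid markers lower (2190 to 2250 against 2280 to 2420). The part of these markers in the result was not tested.

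Control cells of aged and young hosts differed at 50 member peaks (34.0%, against 36.5% of all peaks) when the 3 states that both have were averaged, 17 higher and 33 lower in aged hosts. Of the 115 member peaks not at a start 46 were called, a share near the 36.5% of all peaks. Of the 32 start peaks 4 were called, all lower in aged hosts, where 28.9% of all start peaks were called and 12.6% were called lower. Among markers of other cells, the myeloid genes gave 2020 to 2420 in the 8 aged and 2430 to 2760 in the 8 young OTC libraries, without overlap. In Tprog the melanoma genes gave 1340 to 1380 in aged and 1570 to 1630 in young hosts and the CD8 T cell genes 19800 to 20000 and 22000 to 22200. The melanoma genes were lower in aged Ttran (1280 to 1290 against 1350 to 1400) and Tterm (1250 to 1260 against 1270 to 1330) too. B cell genes were higher in aged Tprog (932 to 1010 against 781 to 805) and Tterm (686 to 701 against 606 to 652). What part these lists had in the result was not tested. The called start peaks were Cdk6 (-0.22), Mki67 (-0.20), the second Ccnd3 start (-0.19) and Mcm6 (-0.17). The Mki67 start peak (chr7:135715336-135717168) ran from 618 to 776 over the 8 aged OTC libraries, Ttad included, and from 668 to 861 over the 8 young ones, so the groups overlapped. Of the 36 Rb and E2F peaks 9 were called and of the 25 mitosis peaks 4, none of them higher in aged hosts. Both sets were called less often than the 36.5% of all peaks.

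E2f2 has 2 annotated starts, the first under the E2f2 start peak and a second at chr4:136180782 under no peak. A peak 9.2 kb downstream of the second one (chr4:136189460-136190421) differed with age in each of the 3 states that both ages have. It had 10.2 and 28.4 normalized reads in aged OTC Tprog, 51.1 and 41.4 in Ttran, 36 and 61.4 in Tterm, and 48.6 and 43.1 in Ttad. In young OTC cells it had 108 and 76.1 in Tprog, 103, 100 and 117 in Ttran, and 116, 148 and 114 in Tterm. Every aged library lay below every young one, by -1.64 on average (SE 0.18, adjusted p = 1.56e-12). A peak 44.5 kb downstream of the Bub1b start, 560 bp past the gene (chr2:118642152-118643321), had 180 to 214 in the 8 aged and 273 to 378 in the 8 young OTC libraries, again without overlap (-0.76, SE 0.09, adjusted p = 2.21e-11). The peak 17.1 kb downstream of the start of Ccne1, which encodes cyclin E1, was lower in aged hosts by -0.80 (SE 0.13, adjusted p = 8.19e-07), and the peak next to it (chr7:38094120-38094910) by -0.93 (SE 0.17).

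Cdk6 differed in both directions with age, 8 peaks higher and 5 lower in aged hosts. The peak 134.8 kb downstream was higher by 0.55 (SE 0.06, adjusted p = 5.43e-14), by 0.86 in Tprog, 0.28 in Ttran and 0.50 in Tterm. A peak 183.0 kb downstream (chr5:3526219-3527561) was higher by 0.98 (SE 0.17, adjusted p = 1.76e-06), with 83.4 to 208 normalized reads in the aged OTC libraries of those 3 states and 48 to 85.5 in the young ones. The peak 76.7 kb downstream was lower by -0.78 (SE 0.12, adjusted p = 1.43e-07).

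The difference between Tprog and Tterm itself changed with age at 4 member peaks (2.72%, against 2.32% of all peaks). The first Ccnd3 start peak had 562 and 581 normalized reads in aged Tprog against 616 and 707 in Tterm, and 726 and 701 in young Tprog against 528, 481 and 582 in Tterm, a change of -0.64 (SE 0.15, adjusted p = 0.0086). Tprog lay higher in young hosts, which was called, while the aged difference by itself was not called (-0.21, SE 0.11, adjusted p = 0.211). The Ccne1 start peak was lower in young Tprog, with 931 and 760 against 1090, 1160 and 1160 in Tterm, and not in aged Tprog, with 1000 and 1080 against 997 and 928 (0.54, SE 0.13, adjusted p = 0.0109). The Ccnd3 call ended without aged Tprog replicate 1 (-0.61) or aged Tterm replicate 2 (-0.54), and the Ccne1 call without aged Tprog replicate 2 (0.49), aged Tterm replicate 2 (0.49) or young Tprog replicate 2 (0.40). The count was 2 without either aged Tprog library, 1 without aged Tterm replicate 2 and 9 when only the compared groups were fitted. One of the 4 was higher, and 3 of 4 after quantile normalization, those of Ccne1, Ccne2 and the Cdk6 start.

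The Zfp219 guide went with a broad, small rise at the starts of the cell cycle genes in aged hosts. Over the 4 states, 39 member peaks were called against OTC (26.5%, against 25.8% of all peaks), 30 higher and 9 lower. Of the 32 start peaks 17 were called, all 17 higher (53.1%), where 27.5% of all 8894 start peaks were called and 21.2% were called higher. The median difference was 0.14 over the 32 and 0.07 over all start peaks. Among the called were Ccnb2, which encodes cyclin B2 (0.33), Mki67 (0.30), Bub1b (0.30), E2f2 (0.30), Cdk2 (0.27), Cdc6 (0.24), Mybl2 (0.24), Bub1 (0.23), Top2a, the topoisomerase of mitosis (0.20), Ccne1 (0.18), Plk1 (0.17), Mcm6 (0.17), the second Ccnd3 start (0.16), Mcm5 (0.15), Cdk6 (0.14), E2f8 (0.14) and Rrm2 (0.13). Start peaks with values near or below 0, none of them called, were those of E2f1 (0.02), Cdc20 (-0.02), Pcna (-0.03), E2f3 (-0.05), the first Ccnd3 start (-0.09) and Tyms (-0.15).

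Mki67 is the common marker of dividing cells. Its start peak had 618 and 704 normalized reads in aged OTC Tprog, 630 and 685 in Ttran, 776 and 645 in Tterm, and 733 and 737 in Ttad. With the Zfp219 guide it had 745 and 843, 882 and 920, 901 and 785, and 878 and 826 in the same states. In each state both Zfp219 libraries lay above both OTC libraries, and the means were 848 ± 60.0 and 691 ± 56.4 (SD, n = 8 libraries each; limma difference 0.30, SE 0.05, adjusted p = 3.99e-06). By state the difference was 0.45 in Ttran, where it was called, and 0.26, 0.25 and 0.21 in Tprog, Tterm and Ttad, where it was not. Start peaks of Mcm6, Cdc6 and E2f2 also did not overlap in any state. The Mcm6 start peak had 800 to 988 against 745 to 834 normalized reads over all states, and its call ended without Zfp219 Ttad replicate 2 (0.13).

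Reads at the starts of all genes made up 38.2% to 40.0% of the reads in the 8 aged Zfp219 libraries and 36.0% to 37.9% in the 8 aged OTC libraries, and the part of this in the result was not tested. Depth was higher with the Zfp219 guide in Ttran (12793436 to 16034483 reads against 8547780 to 9060635) and Ttad (15700492 to 15723953 against 8059981 to 10929698). It was also higher in Tterm (15249285 to 16159054 against 12447296 to 14780826) and overlapped in Tprog. The part of depth in the result was not tested. The CD8 T cell markers gave 19100 to 20100 with the Zfp219 guide and 19200 to 20000 with OTC. Markers of other cells moved with the guide in single states. Melanoma genes were lower with the Zfp219 guide in Ttad (1070 to 1090 against 1250 to 1500), Ttran (1090 to 1170 against 1280 to 1290) and Tterm (913 to 1100 against 1250 to 1260) and overlapped in Tprog. B cell genes were lower in Ttad (610 to 683 against 896 to 932), Tprog (739 to 826 against 932 to 1010) and Tterm (628 to 657 against 686 to 701). Myeloid genes were higher in Ttad (2360 to 2470 against 2190 to 2250), Tprog (2150 to 2280 against 2020 to 2130) and Tterm (2380 to 2440 against 2270 to 2310), and NK genes were higher in Ttad (3190 to 3200 against 2970 to 3000) and lower in Tprog (3290 to 3300 against 3500 in both). Fibroblast genes were higher in Ttran (651 and 671 against 552 and 566) and Tterm (690 and 766 against 678 and 684). The part of these lists in the result was not tested. Member start peaks held 0.453% to 0.482% of all start reads with the Zfp219 guide and 0.434% to 0.457% with OTC. After quantile normalization 18 of the member start peaks were called, all higher, against 27.1% of all start peaks, and Plk1 was no longer among them (0.15). By state, 9 were called in Ttran (16.7% of all start peaks), 2 in Tprog (1.43%), 2 in Ttad (6.42%) and 0 in Tterm (2.8%; 8 at an unadjusted p under 0.05, 1 by edgeR), with medians of 0.17, 0.12, 0.12 and 0.11, and the differences between states were not tested.

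**Figure D3:**
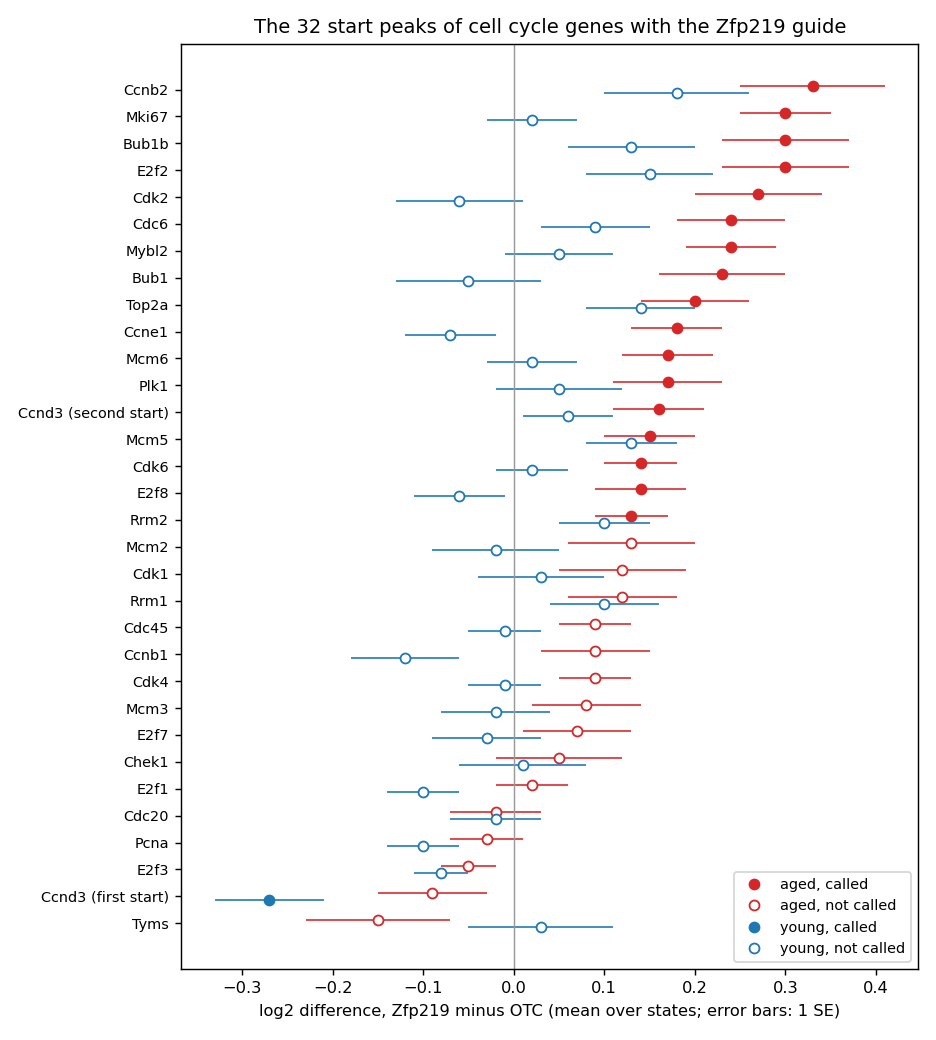
Difference in log2(value + 1) between the Zfp219 guide and OTC (x axis, mean over the states, error bars 1 SE) at the 32 start peaks of the cell cycle genes (y axis), in aged hosts (red) and young hosts (blue), with called peaks filled. In aged hosts 27 of 32 lie above 0 and 17 are called, all above 0, while in young hosts the only called peak is the first Ccnd3 start, below 0.

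By role, 8 of 25 mitosis peaks were called with the Zfp219 guide in aged hosts, all higher and in 7 of 11 genes, as were 3 of 15 helicase and licensing peaks and 2 of 7 clamp and nucleotide peaks, where 25.8% of all peaks were called. Of the 36 Rb and E2F peaks 9 were called, 8 of them higher, and of the 58 G1 and S cyclin and kinase peaks 15, 8 higher and 7 lower, shares near that of all peaks. Of the 17 member starts under a called start peak, 7 (41.2%) held an E2F core and 5 (29.4%) a CHR in the sequence before the start. Of the 16 starts under an uncalled start peak, 5 (31.2%) held the first and 5 (31.2%) the second. Cdk1, with both, was among the uncalled (0.12).

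Away from the starts, several peaks that were low in aged control cells were higher with the Zfp219 guide. The E2f2 peak 9.2 kb downstream of the second start had 51.2 and 38.6 normalized reads in aged Zfp219 Tprog, 106 and 101 in Ttran, 81 and 88.8 in Tterm, and 97.5 and 73.3 in Ttad. All but the Tprog pair lay above every aged OTC library, and in each state the guides did not overlap (1.05, SE 0.17, adjusted p = 4.42e-07). The Bub1b peak 44.5 kb downstream ran from 242 to 331 over the 8 Zfp219 libraries, above the 180 to 214 of OTC (0.54, SE 0.08, adjusted p = 1.54e-07). The Ccne1 peak 17.1 kb downstream had 104 to 159 with the Zfp219 guide and 55.6 to 94 with OTC (0.66, SE 0.12, adjusted p = 1.39e-05). The aged OTC libraries enter this comparison and the one between the ages, so the opposite signs are not independent of each other.

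At Cdk6 the guide went the other way, with 6 of the 8 called peaks lower. The peak 134.8 kb downstream had 381 and 370 normalized reads in aged Zfp219 Tprog, 692 and 669 in Ttran, 859 and 832 in Tterm, and 668 and 636 in Ttad. Both Zfp219 libraries lay below both OTC libraries in every state, by -0.50 over the states (SE 0.05, adjusted p = 3.03e-13) and by -0.62, -0.55, -0.45 and -0.36 in Tprog, Ttran, Tterm and Ttad, each called. At 150.9 kb downstream the values were 1060 and 1100, 1280 and 1280, 1400 and 1410, and 1250 and 1210 in the same order of states, also below OTC in each (-0.35, SE 0.04, adjusted p = 1.74e-13). Tprog kept the lowest values with every guide at both peaks. The start peak of the same gene was higher by 0.14 (SE 0.04, adjusted p = 0.00382).

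**Figure D4:**
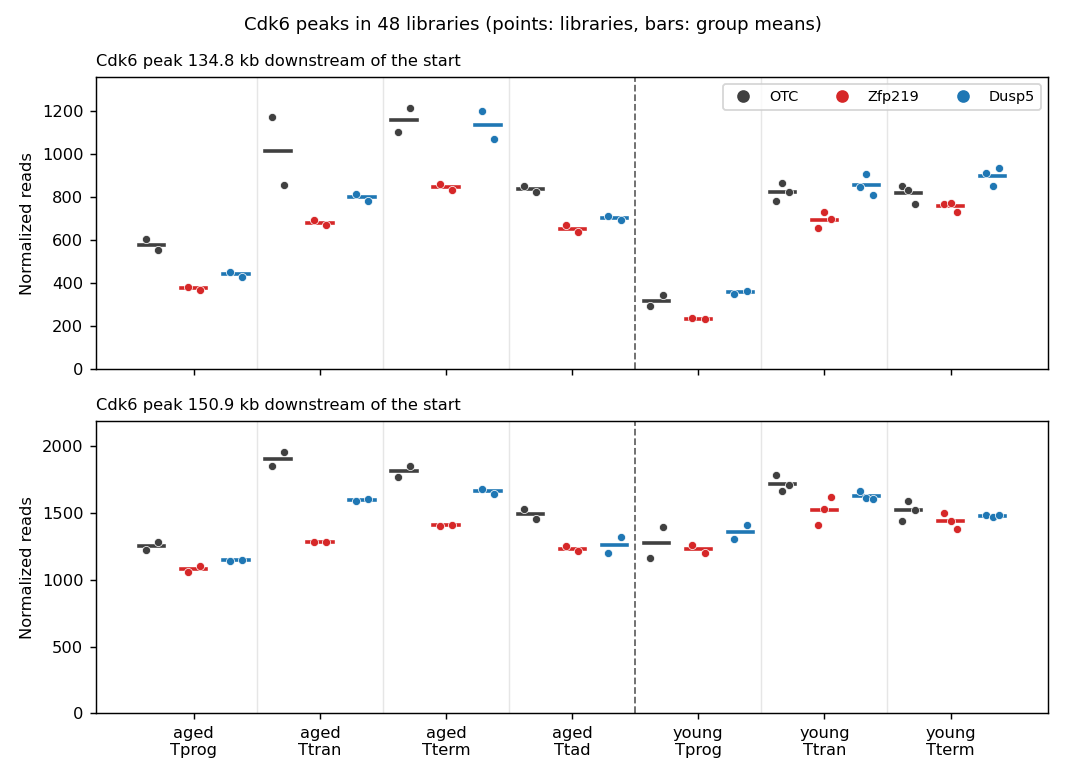
Normalized reads (y axis) of 2 Cdk6 peaks in the 48 libraries, by host age and state (x axis) and guide (colour), with group means as bars. Tprog is lowest in every guide and age at the peak 134.8 kb downstream, and in aged hosts the red Zfp219 points lie under the grey OTC points in all 4 states at both peaks.

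In young hosts the Zfp219 guide gave 9 called member peaks (6.12%, against 7.07% of all peaks), 3 higher and 6 lower. After quantile normalization 11 were called with 6 higher, and 4 start peaks with 3 higher in place of 1 lower (6.73% of all start peaks by limma). Depth was lower with the guide in young Ttran (6589023 to 7952298 reads against 12629361 to 29942755) and Tprog (9764589 to 13047103 against 15520213 to 18493537). It overlapped in Tterm, and the part of depth in the result was not tested. The CD8 T cell markers were lower with the guide in each state, with 20300 to 20600 against 22000 to 22200 in Tprog, 19200 to 19500 against 19900 to 20300 in Ttran and 18300 to 18800 against 19900 to 20500 in Tterm. NK markers were higher in each state, with 3720 to 3800 against 3640 to 3700 in Tprog and 3360 to 3460 against 2970 to 3180 in Ttran. In Tterm they gave 3060 to 3230 against 2800 to 2970. Melanoma markers were lower in Ttran (1190 to 1290 against 1350 to 1400), and myeloid markers higher in Tprog (2780 to 2880 against 2700 to 2760). What part these lists had in the result was not tested. Of the 9, 5 were in Ccnd3, all lower: the first start peak had 542 to 600 normalized reads in Zfp219 Tprog, 471 to 525 in Ttran and 454 to 469 in Tterm, under the 701 to 726, 561 to 662 and 481 to 582 of OTC in each state (-0.27, SE 0.06, adjusted p = 0.000915). The peak 10.7 kb further into the gene was lower by -0.37 (SE 0.07, adjusted p = 5.78e-05). The Cdk6 peak 134.8 kb downstream was lower by -0.26 (adjusted p = 0.00029), called in Tprog alone among the states (-0.43). The Mki67 start peak was not called (0.02, SE 0.05, adjusted p = 0.912, with 667 to 920 in the Zfp219 and 668 to 861 in the OTC libraries).

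The effect of the Zfp219 guide differed between aged and young hosts at 12 member peaks (8.16%, against 9.11% of all peaks), 8 higher and 4 lower in aged hosts. At the starts, 30 of 32 differences were above 0, with a median of 0.13 where that of all start peaks was 0.08, and 2 were called (7.56% of all start peaks), Mki67 (0.31, SE 0.08, adjusted p = 0.00638) and Ccne1 (0.23, SE 0.08, adjusted p = 0.0434), the second not after quantile normalization (0.22). Away from the starts the E2f2 peak 9.2 kb downstream of the second start (1.25, SE 0.26, adjusted p = 0.000384), the Ccne1 peak 17.1 kb downstream (0.76, SE 0.19, adjusted p = 0.00463) and the Bub1b peak 44.5 kb downstream (0.54, SE 0.13, adjusted p = 0.00254) rose more in aged hosts. Cdk6 fell more there, by -0.28 at both main distal peaks (SE 0.08 and 0.06, adjusted p = 0.0137 and 0.000207).

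**Figure D5:**
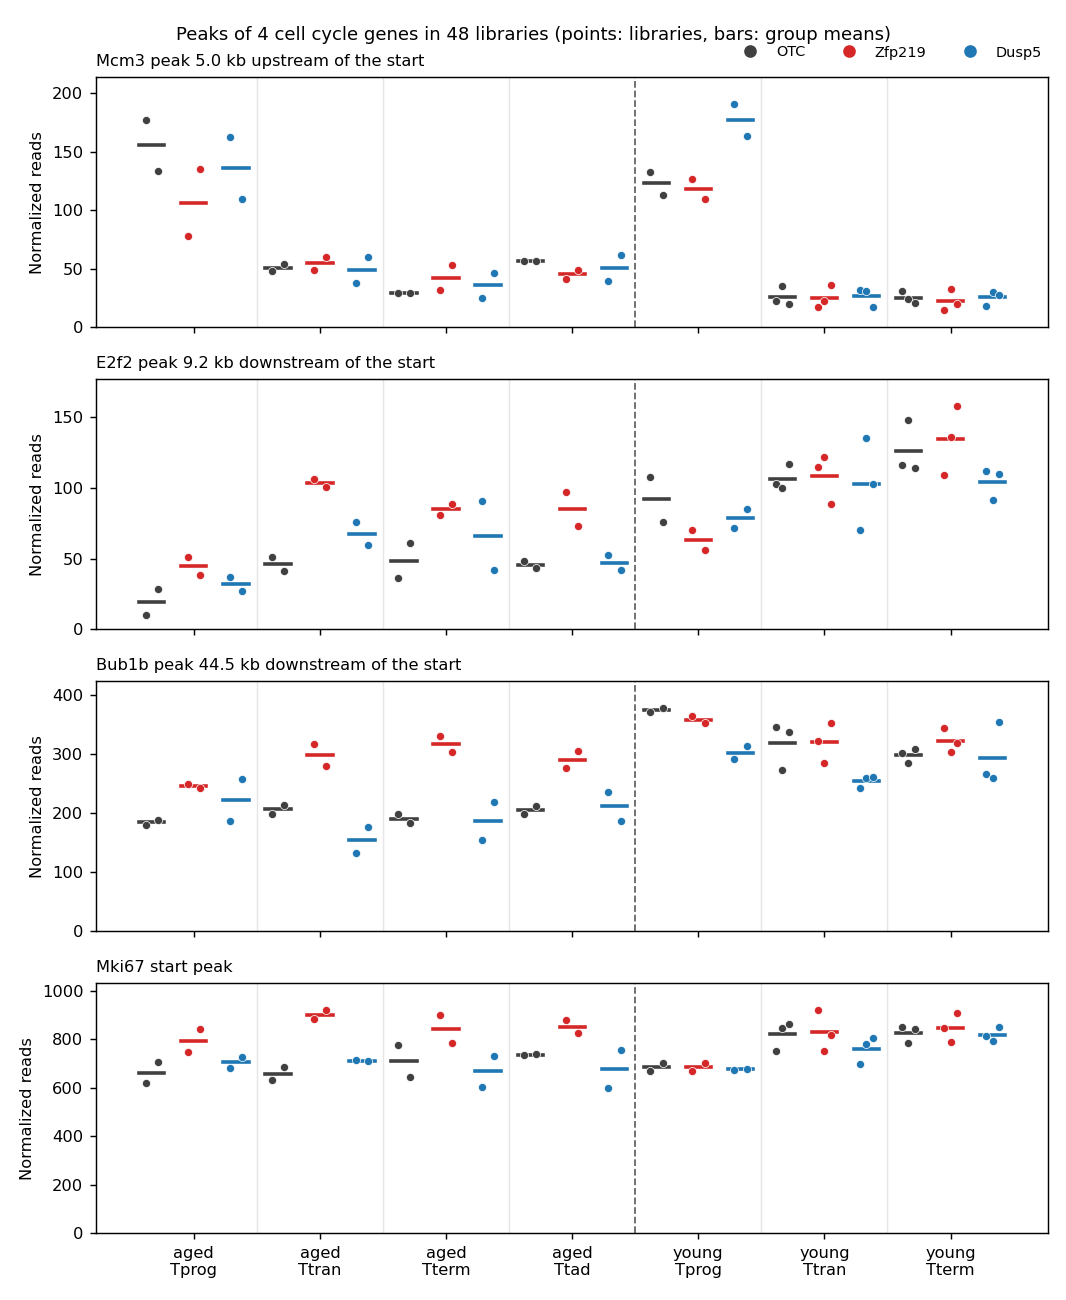
Normalized reads (y axis) of peaks near Mcm3, E2f2 and Bub1b and of the Mki67 start peak in the 48 libraries, by host age and state (x axis) and guide (colour), with group means as bars. The Mcm3 peak is high in Tprog with every guide at both ages, and in aged hosts the red Zfp219 points lie above the grey OTC points in every state for E2f2, Bub1b and Mki67, which they do not in young hosts.

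The Dusp5 guide changed few of these peaks. In aged hosts 12 were called (8.16%, against 12.2% of all peaks), 5 higher and 7 lower, with 8 of 11 higher after quantile normalization, and 7 called when only the compared groups were fitted. The CD8 T cell markers gave 16900 to 19200 with the Dusp5 guide and 19200 to 20000 with OTC, and in Tterm 16900 to 17400 against 19300 in both. The melanoma markers gave 1050 to 1090 against 1250 to 1260 in Tterm and 955 to 1070 against 1280 to 1290 in Ttran. Myeloid markers were lower in Tterm (2150 to 2200 against 2270 to 2310). B cell markers were higher in Tterm (729 to 772 against 686 to 701), and NK markers in Ttad (3040 to 3250 against 2970 to 3000). Fibroblast markers were higher in Ttran (695 and 800 against 552 and 566) and Tterm (725 and 730 against 678 and 684). What part these lists had in the result was not tested. The Cdk6 peak 134.8 kb downstream had 451 and 430 normalized reads in aged Dusp5 Tprog, 814 and 782 in Ttran, 1200 and 1070 in Tterm, and 712 and 695 in Ttad. These lay below OTC in Tprog, Ttran and Ttad and overlapped OTC in Tterm (-0.25, SE 0.05, adjusted p = 0.000276). The peak 150.9 kb downstream was lower by -0.19 (SE 0.04, adjusted p = 0.0001), a call that ended after quantile normalization (-0.08). One start peak was called (11.3% of all start peaks), Ccnb2 (0.24, SE 0.08, adjusted p = 0.0371), which edgeR did not call.

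In young hosts 4 member peaks were called with the Dusp5 guide (2.72%, against 3.82% of all peaks), 3 higher and 1 lower. These were peaks of Bub1b (0.70), Ccnd1 (1.17), E2f3 (1.08) and Mki67 (-1.69), none of them at a start. The CD8 T cell markers gave 20800 to 21800 against 22000 to 22200 in Tprog and 18000 to 18500 against 19900 to 20500 in Tterm. Melanoma markers were also lower in Tprog (1420 to 1540 against 1570 to 1630) and Tterm (1240 to 1260 against 1270 to 1330). B cell markers were higher in Tprog (811 to 924 against 781 to 805) and Tterm (662 to 744 against 606 to 652). NK markers were higher in Tprog (3970 to 4000 against 3640 to 3700), and the part of these lists was not tested. The count was 1 without OTC Tprog replicate 2 or OTC Tterm replicate 2, and 2 without OTC Tprog replicate 1, OTC Tterm replicate 1, Dusp5 Tprog replicate 2, Dusp5 Tterm replicates 1 or 3 or Dusp5 Ttran replicate 1. After quantile normalization it was 2, with 1 higher. Its effect differed between the ages at 2 member peaks (1.36%, against 4% of all peaks). These were the Cdk6 peak 134.8 kb downstream, lower in aged hosts relative to young ones by -0.37 (SE 0.08, adjusted p = 0.00143), and a Ccnd3 peak 37.9 kb downstream of the first start (0.56), a call that ended without aged OTC Tprog replicate 1 (0.48). The count was 1 without aged OTC Tprog replicate 1 and 5 without aged OTC Ttran replicate 1.

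Other genes of the same pathway, 65 in number (origin recognition, polymerases, replication factor C, condensed chromosome and spindle genes, and pocket proteins), gave 169 peaks in 59 genes. Between Tprog and Tterm 31 of them were called in aged hosts (13 higher, 18 lower) and 37 in young hosts (17 higher, 20 lower), 18.3% and 21.9% against 20.1% and 26.5% of all peaks. With the Zfp219 guide in aged hosts 52 were called (30.8%, against 25.8% of all peaks), 32 higher and 20 lower, and of their 40 start peaks 15 were called (37.5%, against 27.5% of all start peaks), 14 of them higher. With that guide in young hosts 13 were called (7.69%, against 7.07%), 7 of them higher. Between the ages of control cells 51 were called (30.2%, against 36.5%), of which 39 were lower in aged hosts.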

How the data were processed

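Accessible chromatin was measured by ATAC-seq with 50 bp paired reads in 48 libraries. The deposited table gives a normalized signal per peak, which the authors made by dividing the reads in each peak by a size factor of the library. Multiplying back gave whole reads for 100% of the values within 0.001 reads, and those reads were used for depths and for edgeR. The submitters' processing notes name Bowtie2 2.2.9, SAMtools 1.3.1, Picard 2.8.0, MACS2 2.1.1, DESeq2 1.28.1 and the mm10 genome. No peak was corrected for width (median 899 bp), and exon and intron positions were not used here.

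Gene bodies and starts came from RefSeq (GRCm38.p6), of which 51108 of the 53868 peaks received a gene. Groups, host age (A or Y) and replicate numbers were read from the sample titles. The test was limma 3.58.1 in R 4.3.3 with a mean-variance trend on log2(value + 1), fitted to all 48 libraries with a mean for each of the 21 groups. Benjamini-Hochberg adjustment ran over all peaks for each of 34 comparisons, so p-values are not adjusted over the comparisons. The main comparisons described are 17 of these, and results from some of the rest, for single states, are also given. Comparisons of a guide average the states, and those between ages average the states that both ages have.

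Alternatives were a pseudocount of 8, leaving out the weakest 25% of peaks (117 member peaks stayed), quantile normalization, fitting the compared groups alone, the replicate number as a block, edgeR 4.0.16 (quasi-likelihood, TMM), and leaving out each library. The same alternatives for counts of Cdk6 peaks and of start peaks were added after seeing the data. On simulated counts for 53868 peaks with 100 changed 2-fold, limma recovered 66% in aged OTC Tprog against Tterm with 2 false calls, and 99% in aged Zfp219 against OTC with 7. The changed peaks were drawn from outside the weakest 25%, and the spread was set to 3 times counting noise. Recovery of weaker peaks and of differences smaller than 2-fold, such as those at the starts, was not measured. Replicates of 1 group correlated at 0.932 to 0.978 and differed by more than counting noise, so none was counted as a repeat of another.

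The members and the lists were chosen with earlier results of these data known. Peaks were picked by rule: in each comparison up to 12 called member peaks with the largest differences whose groups did not overlap in any state, at most 2 per gene, plus the start or strongest peaks of 14 fixed genes. The text describes only part of the peaks picked. Those left out include, in aged Tprog against Tterm, peaks of Cdk6 (-2.54), E2f2 (-1.40), Ccnd1 (-1.20) and Wee1 (1.16). In aged against young control cells they include peaks of Rrm2 (-1.97) and Mybl2 (-1.68). Other called start peaks, the peaks of Ccnd3 and Cdk6 outside that rule and the Bub1b, Ccnd1, E2f3 and Mki67 peaks of the young Dusp5 comparison were named after their values were seen. One of the marker genes is not reported here.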

Additional observations from a re-analysis of the deposited data

Results flagged for a closer look

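The difference between Tprog and Tterm in control cells changed with host age at 4 member peaks, by the interaction test in limma. At the first Ccnd3 start the aged difference minus the young one was -0.64, and at the Ccne1 start it was 0.54. At the peak of Gins2, a part of the replicative helicase complex, it was -0.46, with 1240 and 1240 normalized reads in aged Tprog, 1450 and 1470 in aged Tterm, 1450 and 1330 in young Tprog and 1160, 1240 and 1160 in young Tterm. At the peak near Wee1, a kinase that holds back Cdk1, it was -0.46. The Gins2 and Wee1 calls ended after quantile normalization, at -0.30 and -0.32. The Gins2 call also ended without young Tprog replicate 1 (-0.40), and the Wee1 call without any 1 of 7 libraries (-0.42 to -0.48).

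The difference between the Zfp219 guide and OTC changed with host age at 12 member peaks. It was higher in aged hosts at E2f2 9.2 kb downstream of its second start (1.25), at Ccne1 17.1 kb downstream (0.76) and at the peak next to it (0.73), at Bub1b 44.5 kb downstream (0.54), at Ccnd3 16.7 kb (0.40) and 4.9 kb (0.34) downstream of a start, and at the Mki67 start (0.31). The Ccne1 start was also higher (0.23). The difference was lower at a distal Ccnd2 peak (-1.13) and at Cdk6 183.0 kb (-0.84), 150.9 kb (-0.28) and 134.8 kb (-0.28) downstream. The Cdk6 call at 183.0 kb ended without aged Zfp219 Tprog replicate 1 (-0.72) or young Zfp219 Tprog replicate 2 (-0.69). The call at the Ccne1 peak next to that at 17.1 kb ended by edgeR (0.63) and without any 1 of 21 libraries (0.47 to 0.75). The Ccnd3 call at 4.9 kb ended after quantile normalization (0.33) and without any 1 of 16 libraries (0.30 to 0.35), and the one at 16.7 kb without any 1 of 8 libraries (0.33 to 0.38).

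The difference between the Dusp5 guide and OTC changed with host age at 2 member peaks, Ccnd3 37.9 kb downstream of its first start (0.56) and Cdk6 134.8 kb downstream (-0.37).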

How the results depend on the processing

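Each count of called member peaks was recomputed under 6 other settings and without each library. Counts stayed within 1.5 times in all settings that kept every library, with these exceptions. Fitting the compared groups alone gave 0 for aged Ttran against Tterm (3 in the fit of all libraries), 25 for young Ttran against Tterm (13), 7 for Ttad against Ttran (11), 7 for aged Dusp5 (12) and 9 for the change of Tprog against Tterm with age (4). For young Dusp5 (4), leaving out the weakest peaks or quantile normalization gave 2.

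Leaving out 1 library gave 15 to 20 for aged and 24 to 34 for young Tprog against Tterm, 13 to 27 for aged and 14 to 20 for young Ttran against Tprog, and 0 to 4 and 8 to 11 for Ttran against Tterm. It gave 3 to 7, 3 to 9 and 8 to 12 for Ttad against Tprog, Tterm and Ttran, and 44 to 53 for aged against young. For Zfp219 the ranges were 32 to 40 in aged and 6 to 10 in young hosts, and for Dusp5 8 to 15 and 1 to 4. The changes with age ranged over 1 to 4 for the states, 9 to 16 for Zfp219 and 1 to 5 for Dusp5. The 17 start peaks with the aged Zfp219 guide became 14 to 18, the Cdk6 counts 8 to 11 in aged and 10 to 13 in young Tprog against Tterm, and 3 to 9 in Ttad against Tterm. A fit without 1 of 2 libraries takes the spread of the lone library from the other groups.

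Same-numbered libraries did not deviate together over the peaks (210 pairs of groups, correlation -0.02 to 0.02), so no pairing by number was used in the main fit. These correlations do not tell whether same-numbered pools came from the same mice. With a replicate block, 31 and 39 member peaks were called between Tprog and Tterm in aged and young hosts, 39 for Zfp219 and 12 for Dusp5 in aged hosts. The rule for picking called peaks gave 117 results, described in the text or not, where a peak counts once for each comparison that picks it. Of 1803 checks on them, 0 reversed and 219 lost the call, and the cause was not tested. Groups of 2 libraries limit what small differences could be called.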
